A study of Mus musculus with 8 samples.

Results

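Tubulins and proteins that bind them were followed through adult oligodendrocyte progenitor cells (aOPC) and adult oligodendrocytes (aOL): the tubulin subunits Tubb4a, Tubb2b, Tubb3 and Tuba1a, the microtubule-binding proteins Tppp, Map1b and Mapt, and the tubulin-sequestering proteins Stmn1 and Stmn4. The genes were chosen by name, and all 9 were found among the 11315 genes of the RNA tables. Their promoters, exons and introns held 373 of the 1497075 CpG sites, counted per strand, in the hydroxymethylation tables. The aOPC were sorted as GFP-positive cells from the brains of Pdgfra-H2BEGFP reporter mice at postnatal day 60, and the aOL likewise from mice of that age with a reporter of the oligodendrocyte lineage, on a C57BL/6 background. Each population gave 2 RNA libraries and 2 libraries of reduced representation hydroxymethylation profiling (RRHP), with DNA and RNA taken from the same cell pellets, and the libraries carry the replicate numbers 2 and 3. The promoter of Pdgfra drives the aOPC reporter, so a cell was assigned by reporter fluorescence, and a histone-bound GFP can outlast the activity of its promoter. The aOL cells are pre-myelinating by the titles of their RNA libraries and myelinating by the protocol, and the tissue field of the aOL RRHP libraries names the Pdgfra reporter, so that all libraries were grouped by title.

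Microtubules are hollow polymers of α- and β-tubulin dimers that grow and shrink at their ends. In oligodendrocytes they fill the processes that reach for axons and carry RNA, proteins and membrane towards the growing myelin sheath. Binding proteins such as tau and TPPP stabilise or nucleate them, stathmins bind free tubulin and favour their shrinkage. The modified base 5-hydroxymethylcytosine (5hmC) is made from methylated cytosine by TET enzymes and is usually abundant in the bodies of expressed genes and sparse at CpG islands.

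The marker genes separated the populations only in part. Their counts stand beside those of all genes tested, of which 31.9% were higher and 29.9% lower in aOL without overlap. The 9 markers of myelinating oligodendrocytes, all present, 1 of them higher and 3 lower in aOL without overlap, had summed levels of 22.64 and 22.45 on the log2 scale in the aOPC libraries against 22.57 and 22.60 in the aOL libraries, sums led by genes at the top of the table, where the libraries share one set of values. The 9 OPC markers had summed levels of 13.25 and 10.15 in aOPC against 10.99 and 11.37 in aOL, sums led by Gpr17, which read 12.64 and 8.20 in aOPC against 9.88 and 9.93 in aOL. Of these markers, Pdgfra, Neu4, Vcan and Sox6 were lower in both aOL libraries than in both aOPC libraries, 1 (Matn4) was higher and 4 overlapped. Pdgfra itself read 7.54 and 5.47 in aOPC against 4.98 and 1.63 in aOL. The 6 neuronal markers present, of 10, had summed levels of 11.28 and 10.54 in aOPC against 10.79 and 10.75 in aOL. Rbfox3, Slc17a7, Nefm and Nrgn were not among the listed genes. The 8 markers of newly formed oligodendrocytes had summed levels of 15.91 and 14.73 in aOPC against 15.28 and 15.37 in aOL, with 5 of them lower without overlap, among them Bmp4 with a log2 difference of -4.16. The 8 astrocyte markers had summed levels of 13.76 and 13.41 against 13.43 and 13.64, and the 7 microglia markers present, of 8, had 12.38 and 11.81 against 12.01 and 11.60. Both endothelial markers present, of 6, were higher in aOL without overlap, Cldn5 with 0.33 and 1.80 in aOPC against 5.92 and 7.13 in aOL and Kdr with 9.07 and 9.36 against 9.73 and 10.07. Their summed levels were 9.07 and 9.37 in aOPC against 9.83 and 10.25 in aOL. The part of other cells in the differences below was not tested, and in such bulk samples fewer cells of a type and less RNA per cell cannot be told apart. The RRHP libraries held 7113237 and 17121440 counts for aOPC and 15923775 and 27057859 for aOL, so that 3 counts, the limit that a count of 0 allows, equal 0.422 CPM (counts scaled to a total of 1000000) in the shallowest library and 0.111 CPM in the deepest.

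RRHP reads the recognition sequence of the restriction enzyme MspI, CCGG, in which 5hmC protected by a glucose group keeps the fragment in the library. A count at a site is therefore the number of reads that start at a hydroxymethylated CpG of one strand, and all 373 sites lay at a CCGG of the genome. The best-read site of several members is printed below, with the sites of smallest p in Tubb3, Map1b and Mapt and a Mapt site without reads in aOPC, since the counts further down refer to these sites. The sequences are from GRCm38, written 5′ to 3′ on the strand of the site, given as + or -, with CCGG in capitals.
Tubb4a coding exon, chr17:57080935-57080964 (+): ccatcttcaggccCCGGggtgggatgtcac
Tubb3 intron, chr8:123418345-123418374 (-): ccatctctccagcCCGGtaaccactcttta
Tubb3 intron, smallest p, chr8:123414512-123414541 (+): tgggttcactgcaCCGGgtggttttatttt
Tuba1a coding exon, chr15:98951490-98951519 (-): gcaagcatgtgccCCGGgcagtgttcgtag
Tppp intron, chr13:74019354-74019383 (+): gttgggtggggggCCGGgggagcctggcaa
Map1b intron, chr13:99474033-99474062 (+): aggtggagagtccCCGGtgaacacactaga
Map1b intron, smallest p, chr13:99495160-99495189 (-): tcaagaaatgagaCCGGtttcccccaaagt
Mapt non-coding exon of some transcripts, chr11:104318103-104318132 (+): agggggcgatgctCCGGtgtggttgtctct
Mapt intron, smallest p, chr11:104317444-104317473 (-): agcaccgagcttcCCGGaagccaatgagga
Mapt intron, no reads in aOPC, chr11:104236614-104236643 (-): cgggttaaggtttCCGGgaaagacttgctc
Stmn4 intron, chr14:66354606-66354635 (+): agatgtcctttctCCGGattcctctgtctt

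For the promoters, the 250 bases before the RefSeq start of 2 genes are shown on the strand of the gene, the plus strand for Tppp and the minus strand for Map1b, because their CCGG sites can be set beside the low counts there. RefSeq promoter sequences of GRCm38.p6 were at hand for Tubb4a, Tubb3, Tuba1a, Tppp and Map1b, and all of them held CCGG, a motif that reads the same on both strands, as did 52.8% of the 32851 promoters in that table.
Tppp promoter, chr13:74009169-74009418 (+): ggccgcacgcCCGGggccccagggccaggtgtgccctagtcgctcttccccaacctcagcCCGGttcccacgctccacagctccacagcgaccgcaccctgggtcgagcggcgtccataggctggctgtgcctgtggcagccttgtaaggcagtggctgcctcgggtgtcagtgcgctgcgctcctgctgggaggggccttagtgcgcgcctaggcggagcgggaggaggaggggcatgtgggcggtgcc
Map1b promoter, chr13:99516603-99516852 (-): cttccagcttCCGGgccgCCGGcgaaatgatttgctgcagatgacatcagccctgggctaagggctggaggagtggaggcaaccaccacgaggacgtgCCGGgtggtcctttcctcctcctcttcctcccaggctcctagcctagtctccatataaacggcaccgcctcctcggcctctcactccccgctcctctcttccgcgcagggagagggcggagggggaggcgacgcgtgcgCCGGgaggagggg

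The RNA comparison asked whether these genes differ in expression between progenitors and oligodendrocytes. On the deposited log2 values, Tppp and Tubb4a read higher in both aOL libraries than in both aOPC libraries, and Tubb3, Tuba1a, Stmn1 and Stmn4 read lower. The populations overlapped for Tubb2b, Map1b and Mapt. None of these differences passed the test: with limma, 0 of 9 members were called (p under 0.01 and Benjamini-Hochberg adjusted p under 0.05), where 0.0808% of the 11133 genes tested were. At an unadjusted p under 0.05, 1 member was higher, Tppp, and 1 was lower, Stmn1, against 12.1% and 12% of all genes tested. Of all genes, 31.9% were higher and 29.9% lower without overlap, so 2 and 4 of 9 members are shares of the order found everywhere. The median log2 difference was -0.46 over the members and 0.02 over all genes. The labels do not say from how many mice each library came, and the p-values measure only the spread between these libraries.

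**Figure D1:**
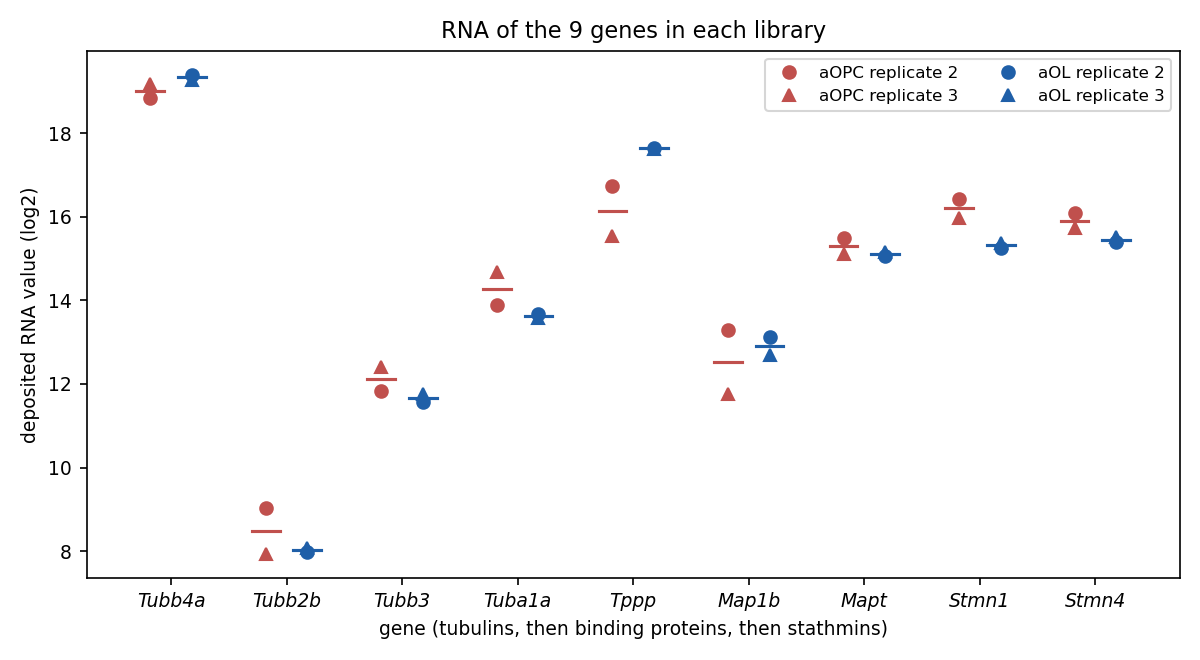
The deposited log2 RNA value of each of the 9 genes (vertical axis) in the 2 aOPC (red) and the 2 aOL libraries (blue), with circles for replicate 2, triangles for replicate 3 and a bar at each mean. Values of different genes are not corrected for length and are compared within a gene only. Tppp and Stmn1 show the widest gaps between the populations, 0.90 and 0.60, and the aOPC libraries lie farther apart than the aOL libraries in all 9 genes.

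Among the tubulins, Tubb4a, the β-tubulin that is prominent in oligodendrocytes and mutated in a hypomyelinating leukodystrophy, was one of the most abundant RNAs in every library. The gene lies at chr17:57080066-57087782 on the minus strand of GRCm38. It read 18.84 and 19.17 in the aOPC libraries against 19.40 and 19.28 in the aOL libraries. The aOL values were higher by 0.33 ± 0.22 (SE), with a gap of 0.10 between the populations, and limma gave an adjusted p of 0.406. The difference was 0.165 without aOPC replicate 2 and 0.495 without aOPC replicate 3. At the top of the table the values carry little more than an order: the first 196 ranks hold one and the same value in all 4 libraries (within 0.0001), and Tubb4a took rank 9 and rank 7 in aOPC and rank 5 and rank 6 in aOL. The whole difference is thus a move of between 1 and 4 places among the top genes.

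Tuba1a (chr15:98949837-98953703, minus strand), an α-tubulin best known from developing neurons, read 13.89 and 14.68 in aOPC against 13.67 and 13.57 in aOL. Tubb3 (chr8:123411424-123422015, plus strand), the β-tubulin used as a marker of young neurons, read 11.84 and 12.41 in aOPC against 11.57 and 11.76 in aOL. Both were lower in aOL without overlap, Tuba1a with a log2 difference of -0.66 ± 0.33 and Tubb3 with one of -0.46 ± 0.28, with limma adjusted p of 0.301 and 0.370. The Tubb3 difference was -0.17 without aOPC replicate 3 and -0.74 without aOPC replicate 2. Tubb2b (chr13:34126748-34130466, minus strand), a β-tubulin of migrating neurons, read 9.03 and 7.93 in aOPC against 7.99 and 8.07 in aOL. Its high value in aOPC replicate 2 decided its difference of -0.46 ± 0.42, which was 0.09 without that library and -1.002 without aOPC replicate 3. Tuba1a and Tubb2b have near-identical paralogs (Tuba1b and Tuba1c, and Tubb2a) between which reads can be split wrongly, and Tubb3 and Tuba1a are each overlapped by another gene model on the same strand, so their values are uncertain to that extent. Tuba1b, Tuba1c and Tubb2a all overlapped between the populations, with differences of -0.08, 0.18 and -0.23.

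Of the binding proteins, Tppp showed the largest difference of the 9 genes. Its product, p25, is found mainly in oligodendrocytes and promotes the nucleation and bundling of microtubules. The gene (chr13:74009407-74035753, plus strand) read 16.73 and 15.53 in aOPC against 17.66 and 17.62 in aOL. The aOL libraries lay 0.03 apart and the aOPC libraries 1.199 apart, with aOPC replicate 3 lowest, and all aOL values were above all aOPC values. The difference was 1.51 ± 0.45, or 2.85-fold on this scale, with an adjusted p of 0.175 in limma. Among the genes of a library, Tppp took rank 47 and rank 141 in aOPC and rank 21 and rank 22 in aOL. These lie within the first 196 ranks, where the libraries share one set of values. The difference in Tppp is thus also a move between ranks, and its close aOL values are those of neighbouring ranks. Without aOPC replicate 2 the difference was 2.11 (limma adjusted p = 0.0183) and without aOPC replicate 3 it was 0.91 (limma adjusted p = 0.0445). Both pass the thresholds, but the spread then comes from the closely matching aOL pair alone, the lone aOPC library being assumed to vary like it, and 34.2% and 17.7% of all genes tested are called in those fits.

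Map1b (chr13:99421446-99516540, minus strand), which binds microtubules of growing processes, read 13.29 and 11.75 in aOPC against 13.12 and 12.69 in aOL. Mapt (chr11:104231390-104332090, plus strand), which encodes tau, read 15.50 and 15.10 in aOPC against 15.05 and 15.16 in aOL. In both genes the populations overlapped, and the differences of 0.38 ± 0.58 and -0.20 ± 0.23 had limma adjusted p of 0.702 and 0.624. The Map1b difference turned to -0.38 without aOPC replicate 3, the library in which it was lowest, and was 1.15 without aOPC replicate 2. That of Mapt was -0.0002 without aOPC replicate 2 and -0.39 without aOPC replicate 3.

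Both stathmins read lower in aOL. Stmn1 (chr4:134468320-134473843, plus strand), which binds pairs of tubulin dimers and promotes the shrinkage of microtubules, read 16.43 and 15.98 in aOPC against 15.25 and 15.38 in aOL. Stmn4 (chr14:66344296-66361680, plus strand), a membrane-bound neural relative, read 16.08 and 15.74 in aOPC against 15.39 and 15.52 in aOL. In both genes aOPC replicate 2 was highest and aOL replicate 2 lowest, without overlap between populations. Stmn1 had a log2 difference of -0.89 ± 0.25, 1.85-fold lower in aOL on this scale, with an adjusted p of 0.164 in limma. It took rank 60 and rank 89 in aOPC and rank 186 and rank 164 in aOL. Stmn4 took rank 82 and rank 112 in aOPC and rank 163 and rank 143 in aOL. All lie within the first 196 ranks, where the libraries share one set of values, so both differences are moves between ranks. Stmn4 had a difference of -0.46 ± 0.22 (limma adjusted p = 0.288), which was -0.29 without aOPC replicate 2 and -0.63 without aOPC replicate 3. Leaving out aOPC replicate 3 took the Stmn1 difference to -1.11 and past the thresholds (limma adjusted p = 0.0445), again with the spread of the aOL pair alone, and without aOPC replicate 2 it was -0.66 and was not called. Leaving out aOPC replicate 2 did so for Tuba1a, at -1.05 (limma adjusted p = 0.0189), which was -0.26 without aOPC replicate 3 (limma adjusted p = 0.170), and leaving out aOPC replicate 3 for Tubb2b (limma adjusted p = 0.0445).

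Set per kilobase of exon, by subtracting the log2 of the summed exon length, the mean levels in aOL fell in the order Tubb4a (18.18), Tppp (15.29), Stmn4 (14.51), Stmn1 (14.37), Tuba1a (12.77), Mapt (12.19), Tubb3 (10.76), Map1b (8.92) and Tubb2b (6.83). In aOPC the order was Tubb4a (17.85), Stmn1 (15.26), Stmn4 (14.97), Tppp (13.78), Tuba1a (13.43), Mapt (12.39), Tubb3 (11.22), Map1b (8.54) and Tubb2b (7.28). Tppp therefore stood below both stathmins in aOPC and above both in aOL, in every library. In aOPC the values per kilobase of Stmn1 and Stmn4 overlapped, as did those of Tppp and Tuba1a, and in aOL those of Stmn4 (14.45 and 14.58) were just above those of Stmn1 (14.31 and 14.44). The order assumes that the deposited values were not already divided by length, which is not given in the sources used here.

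A wider list of 96 microtubule genes, in 9 role groups, placed the members among their relatives. Of the list, 87 genes were tested in RNA, 28 were higher and 24 lower in aOL without overlap, against 31.9% and 29.9% of all genes tested, 9 and 8 of them at an unadjusted p under 0.05, against 12.1% and 12%, and limma called 0. These shares are close to those of all genes. The median difference over the 87 genes was 0.08. All 4 stathmins were lower in aOL without overlap, with a median of -0.99, where 29.9% of all genes tested were lower in that way, and nothing particular to so small a group can be read from its count. Stmn2, the neuronal stathmin also called SCG10, read 7.42 and 6.53 in aOPC against 5.28 and 4.46 in aOL, a difference of -2.10 ± 0.46 (limma adjusted p = 0.137), and Stmn3 had one of -1.10 ± 0.41 (limma adjusted p = 0.214).

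The counts of the other role groups, like those of the whole list, stand beside 31.9% of all genes tested that were higher and 29.9% that were lower without overlap. The tubulin folding cofactors, which assemble the α/β dimer, were lower in 4 of 6 genes and higher in 1. Tbcb, a cofactor that binds α-tubulin, read 12.80 and 13.33 in aOPC against 11.56 and 11.56 in aOL (-1.51 ± 0.26, limma adjusted p = 0.127). Tbcd, which handles β-tubulin, was higher by 0.10 ± 0.19. Of the 11 tubulin subunits, 3 were lower and 1 higher without overlap, and the subunit with the lowest difference outside the members was Tubb4b, with -0.57 ± 0.30. No nucleation or minus-end protein was lower without overlap, and 5 of 9 were higher. The minus-end binding protein Camsap2 was among them, reading 11.47 and 10.25 in aOPC against 12.46 and 12.33 in aOL (1.53 ± 0.46, limma adjusted p = 0.177). Its difference was 2.14 without aOPC replicate 2 and 0.92 without aOPC replicate 3.

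The remaining groups were mixed. Of 17 microtubule-associated proteins, the members included, 4 were higher and 2 lower, with Map2 at 1.12 ± 0.54 and the doublecortin-like kinase gene Dclk1 at -1.30 ± 0.28. Of 9 plus-end proteins, 4 were higher and 2 lower, with the polymerase gene Ckap5 at 0.98 ± 0.22 and Mapre3 at -0.17 ± 0.19. Of 6 severing enzymes, 2 were higher and 2 lower, with the spastin gene Spast at 0.58 ± 0.19 and Fign at -0.30 ± 0.25. These groups therefore held genes of both directions. Of 10 tubulin-modifying enzymes, 4 were higher and 2 lower, with the deacetylase gene Hdac6 at 0.66 ± 0.26 and Vash1, whose product removes the terminal tyrosine of α-tubulin, at -1.01 ± 0.47. Of 15 motor genes, 7 were higher and 5 lower, with the dynein intermediate chain gene Dync1i1 at 1.47 ± 0.29 and the light chain gene Dynll1 at -1.001 ± 0.19. The smallest limma adjusted p among the genes named for these groups was 0.133. Without aOPC replicate 2 limma called 33 of the 87 genes and without aOPC replicate 3 it called 16, in the fits that call 34.2% and 17.7% of all genes.

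**Figure D2:**
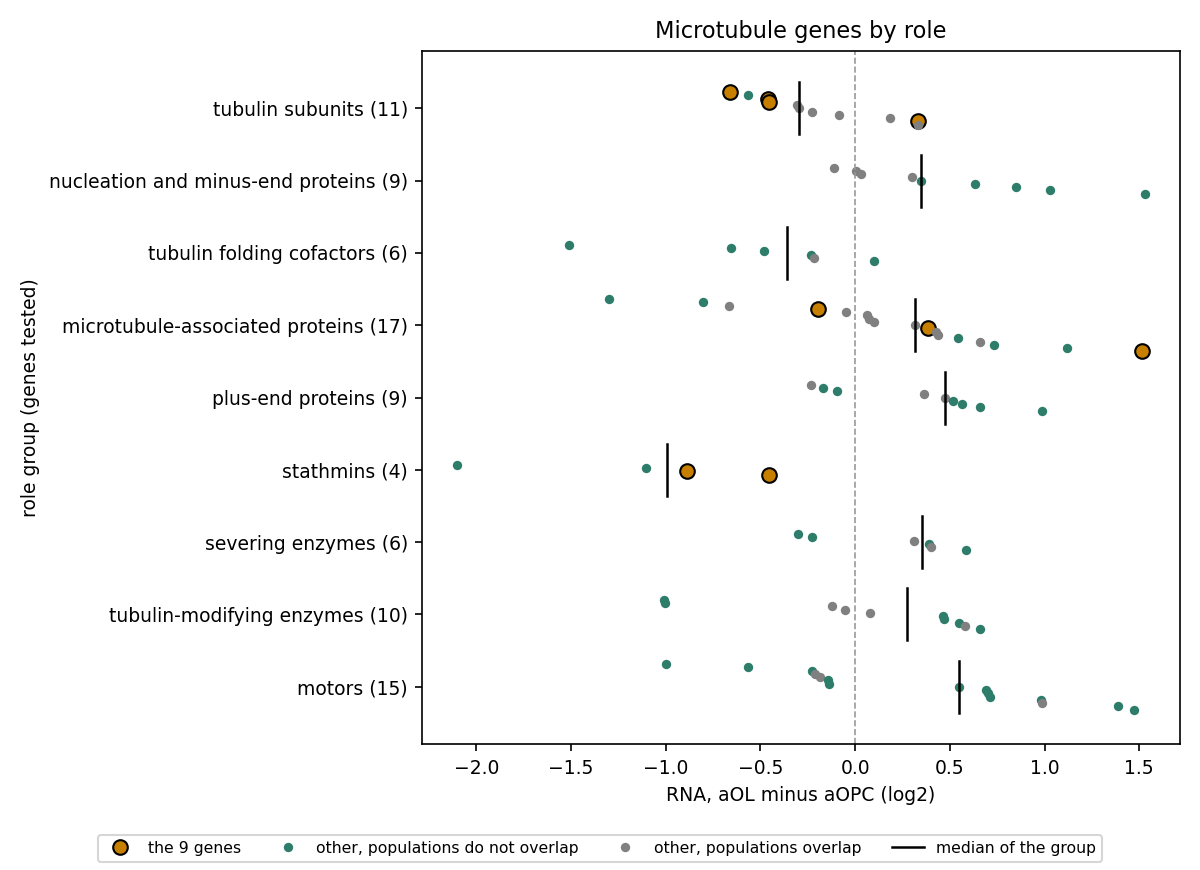
The difference in RNA between aOL and aOPC (horizontal axis, log2) of the 87 microtubule genes tested, in rows by role, with the 9 members as large orange points, other genes in green where the populations do not overlap and in grey where they do, and a bar at the median of each group. The 4 stathmins all lie below 0, with a median of -0.99 (29.9% of all genes tested were lower without overlap), and the motors spread from -1.001 to 1.47.

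The RRHP comparison asked whether the same genes differ in 5hmC. Within gene bodies (the sites of exons and introns summed), no member passed the test: edgeR's quasi-likelihood test called 0 of 9 at an adjusted p under 0.05, where 0.849% of 18488 gene bodies were called. At an unadjusted p under 0.05, 0 members were higher and 0 lower, where 2.82% and 4.48% of all gene bodies were. DESeq2 also called 0 members, where it called 1.09% of all gene bodies. Of the 9 members, 4 were lower in aOL without overlap in CPM, Tubb4a, Tubb3, Tuba1a and Tppp, against 17.8% of all gene bodies, and 0 were higher, against 21%. The median log2 fold change was -0.10 over the members and -0.003 over all gene bodies.

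Tppp had the smallest p of the gene bodies. Its 19 sites gave 57 and 92 reads in aOPC against 62 and 117 in aOL, or 8.01 and 5.37 CPM against 3.89 and 4.32. The aOL values were lower, and aOPC replicate 2 stood apart from the other libraries. The log2 fold change was -0.68 ± 0.32, with an edgeR adjusted p of 0.703. Without aOPC replicate 3 the fold change was -0.95 and edgeR called it (adjusted p = 0.0161), in a fit that calls 22.7% of all gene bodies, and the introns of Tppp did the same (-0.88, edgeR adjusted p = 0.0273). Without aOPC replicate 2 the fold changes were -0.399 in the gene body and -0.389 in the introns, and neither was called. Tubb4a gave 16.6 and 15.0 CPM in aOPC against 12.8 and 12.6 CPM in aOL from its 18 sites. Its fold change was -0.31 ± 0.16 on the log2 scale (edgeR adjusted p = 0.727), with populations that did not overlap.

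In both of the large genes the populations overlapped. The 131 gene-body sites of Mapt gave 127 and 126 CPM in aOPC against 129 and 119 CPM in aOL, a log2 fold change of -0.04 ± 0.12 (edgeR adjusted p = 0.941). The 115 sites of Map1b gave 85.1 and 106 CPM in aOPC against 114 and 102 CPM in aOL, a fold change of 0.15 ± 0.15 (edgeR adjusted p = 0.806). Without aOPC replicate 3 the latter rose to 0.35 and was called (edgeR adjusted p = 0.0327), and without aOPC replicate 2 it was -0.004. The depth behind these values was high, with 906 to 3212 reads per library in Mapt and 605 to 2754 in Map1b. For Stmn1, with 10 to 43 reads, and Tubb2b, with 18 to 27, no difference could be resolved at this depth: the fold changes were 0.36 ± 0.69 and -0.70 ± 0.65.

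The remaining gene bodies lay close together. Tubb3 gave 23.6 and 21.6 CPM in aOPC against 21.5 and 20.9 CPM in aOL (log2 fold change -0.10 ± 0.14). Tuba1a gave 4.92 and 3.85 CPM against 3.39 and 3.33 CPM (-0.38 ± 0.36). Leaving out each library in turn gave -0.15 to -0.05 for Tubb3 and -0.54 to -0.22 for Tuba1a. Stmn4 gave 8.997 and 9.93 CPM against 9.36 and 9.46 CPM (-0.03 ± 0.20), with the aOL pair inside the aOPC pair. The edgeR adjusted p of these genes ran from 0.808 to 0.973.

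The members differed far more among themselves than between the populations. Per listed site, the gene body of Tubb3 held 1.29 CPM, the highest of the 9 and above 92.0% of genes, followed by Mapt with 0.957, Stmn4 with 0.944, Map1b with 0.885 and Tubb4a with 0.791 CPM. Tuba1a held 0.387, Tppp 0.284 and Tubb2b 0.246 CPM per site, all below the median of all genes of 0.566. Stmn1 held 0.0773 CPM per site, above only 4.10% of genes. The level of RNA and that of 5hmC did not run in one order across the members: Stmn1, among the higher in RNA per kilobase, had the lowest gene-body value, and Tubb3, among the lower in RNA, the highest. These values count only CCGG sites with reads, so they also depend on where such sites lie.

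In promoters, 8 members were tested (Mapt, with 5 to 12 reads per library, was not), and 0 were called by edgeR, where 0.768% of all promoters were. DESeq2 called 0 as well, where it called 0.46% of all promoters. At an unadjusted p under 0.05, 0 members were higher and 0 lower, where 4.18% and 1.79% of all promoters were, and the edgeR adjusted p was 0.998 in all 8. Counts were small, between 10 and 66 reads per library. Stmn4 had the most, with 47 and 38 reads in aOPC against 23 and 66 in aOL, or 6.61 and 2.22 CPM against 1.44 and 2.44. For Tppp the reads were 24 and 19 against 15 and 25, or 3.37 and 1.11 CPM against 0.942 and 0.924, the only promoter of the 9 whose populations did not overlap, where 20.7% of all promoters were lower and 6.8% higher without overlap. In all 9 members except Stmn4 the promoter held less than 0.2 CPM per site, and aOPC replicate 2 had the highest CPM in all 9. That library also stood apart over the whole series, with 8.55% of its reads in promoters against 4.87% to 5.52% in the other 3 libraries. Its part in the promoter values was not tested. Scaling on library totals alone, in place of TMM, moved the median log2 fold change of all promoters from -0.01 to -0.60, so a promoter difference has a direction only relative to that scaling.

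**Figure D3:**
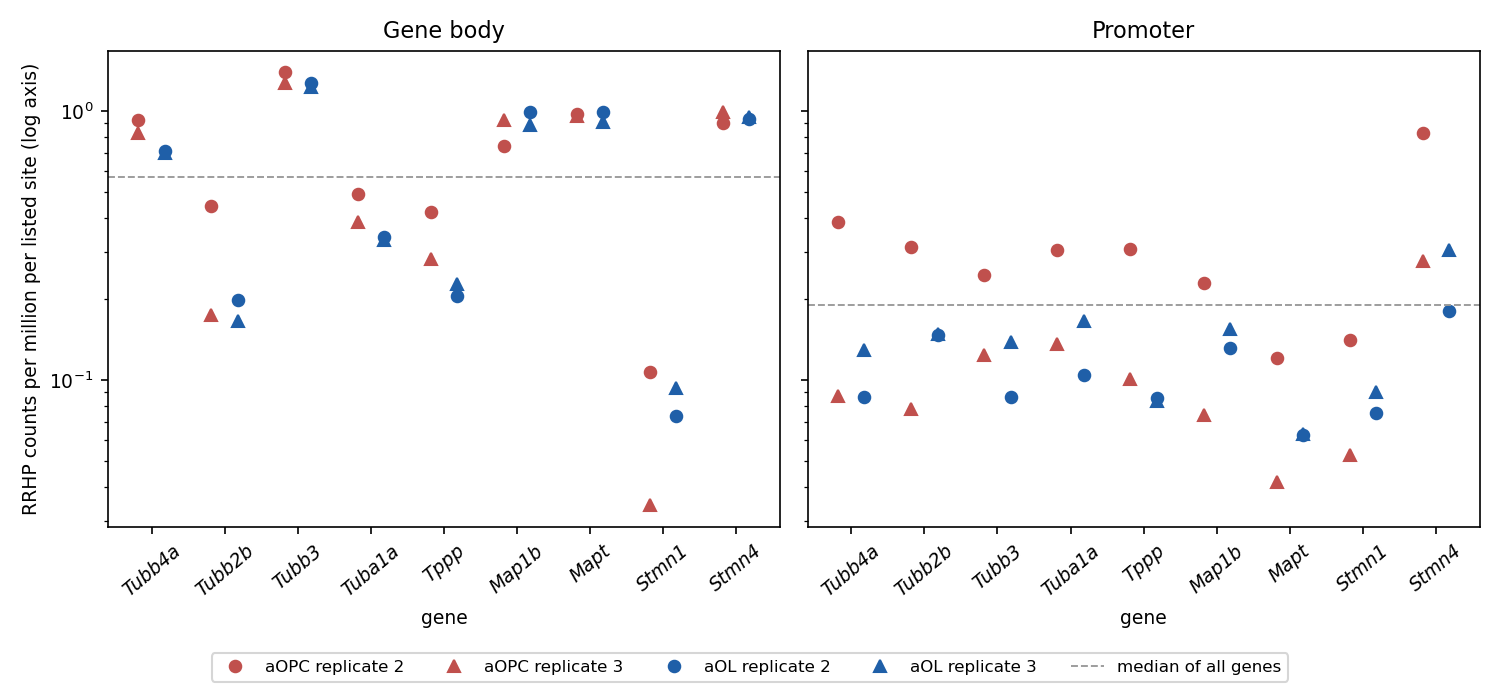
RRHP CPM per listed site (log axis) in the gene body (left) and the promoter (right) of the 9 genes, in the 2 aOPC (red) and 2 aOL libraries (blue), with circles for replicate 2 and triangles for replicate 3. The dashed lines mark the medians over all genes, 0.566 and 0.189. Gene bodies differ more between genes than between populations, and in promoters aOPC replicate 2 is the highest library for every gene.

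The ratio of the gene body to the promoter, in CPM per site, was 13.3 for Mapt, 8.66 for Tubb3, 6.00 for Map1b and 4.59 for Tubb4a, against a median of 2.20 over 16254 genes. Mapt stood above 96.2% of those genes. For Stmn4, Tuba1a, Tppp and Tubb2b the ratio was 2.38, 2.18, 1.97 and 1.44. Only Stmn1, whose 22 sites crowd around its start, had a ratio below 1, at 0.861. A site can belong to both regions, so the ratio partly sets the same sites against themselves. Of its 22 listed sites, Stmn1 had 17 in the gene body and 20 in the promoter. Tuba1a had 10 and 6 of 10, and Tppp 19 and 11 of 22.

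In exons alone, 6 members were tested and 0 were called by edgeR or DESeq2, where edgeR called 0.453% of all genes. Tubb3, Map1b and Mapt were higher in aOL without overlap, against 18% of all genes, and Tubb4a, Tuba1a and Stmn4 lower, against 18.3%. The exon sites of Map1b gave 31.6 and 39.1 CPM in aOPC against 45.7 and 39.4 CPM in aOL (log2 fold change 0.30 ± 0.21), and those of Mapt gave 8.86 and 9.93 CPM against 11.6 and 10.9 CPM (0.28 ± 0.22). Both had an edgeR adjusted p of 0.881, and Map1b was called only without aOPC replicate 3 (0.56, edgeR adjusted p = 0.0472), where 15.8% of all genes were, and was 0.0810 without aOPC replicate 2. Without that library the exon value of Mapt was 0.13 and that of Tubb3 0.031 (0.32 with all libraries). In introns, 8 members were tested and edgeR called 0, where 1.05% of all genes were called, and the smallest p was that of Tppp, 0.0501. Without aOPC replicate 3, edgeR called the introns of Tubb2b (-1.88, adjusted p = 0.0413) beside those of Tppp, where 20.7% of all genes were called. The Tubb2b introns had a fold change of -1.09 with all libraries and -0.0147 without aOPC replicate 2.

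Of the microtubule list, edgeR tested 93 gene bodies and called 0, with 1 higher and 2 lower at an unadjusted p under 0.05, against 2.82% and 4.48% of all gene bodies, and a median of 0.03. Clip3, a relative of the plus-end proteins Clip1 and Clip2 that is known from the trans-Golgi network, had 24.5 and 40.8 CPM in aOPC against 17.8 and 15.4 CPM in aOL (-1.03 ± 0.22 on the log2 scale, edgeR adjusted p = 0.0655), and in its introns alone it was lower at -1.40 ± 0.23 and was called (edgeR adjusted p = 0.0261), the one gene of the list that was. With only sites of 3 reads in every library, edgeR called 0 genes of the list in introns. Map2, which encodes a dendritic relative of tau and read higher in aOL RNA without overlap, had 50.5 and 66.3 CPM in aOPC against 35.0 and 39.0 CPM in aOL (-0.68 ± 0.15, edgeR adjusted p = 0.0946). DESeq2 called the gene bodies of both (adjusted p = 0.0108 for Clip3 and 0.0321 for Map2). Without aOPC replicate 2 edgeR called Clip3, Map2 and Kif5b, where 3.29% of all gene bodies were called, and without aOL replicate 2 it called Clip3, where 0.481% were. Without aOPC replicate 3 it called 22 of the 93 gene bodies of the list, close to the 22.7% called over all. The gene-body fold change of Clip3 was -1.33 without aOPC replicate 2 and -0.56 without aOPC replicate 3. That of Map2 was -0.86 and -0.44, and that of the Clip3 introns -1.67 and -0.98. Clip3 and Map2 were named after their values were seen.

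At the level of single sites, 129 of the 373 had the reads needed for a test (at least 10 in at least 2 libraries), 61 of them in Mapt and 44 in Map1b. EdgeR called 0 of 129, where 2.29% of 443062 sites were called. At an unadjusted p under 0.05, 3 were higher and 5 lower, against 5.45% and 4.31% of all sites. Without overlap in CPM, 31 were higher and 30 lower, against 23.3% and 17.2%. DESeq2 called 0 as well, where it called 1.49% of all sites, with 1 higher and 0 lower at an unadjusted p under 0.05, against 2.56% and 2.22% of all sites in that fit. None of the 22 sites of Stmn1 could be tested.

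The smallest p was that of an intronic site of Map1b on the minus strand (position 99495175 of chromosome 13), printed above, 21365 bases into the gene. It had 0 and 1 reads in aOPC against 13 and 16 in aOL, with an edgeR adjusted p of 0.0670. Without aOPC replicate 2 another Map1b site was called, at position 99462618 (edgeR adjusted p = 0.0485), where 2.64% of all sites were, and it had 6 and 2 reads in aOPC against 13 and 30 in aOL, with populations that overlapped in CPM. The second smallest p was that of an intronic site of Mapt on the minus strand (position 104317459 of chromosome 11), with 2 and 2 reads in aOPC against 13 and 27 in aOL (edgeR adjusted p = 0.139). All of these sites reached 10 reads through the aOL libraries alone, so that the minimum itself favoured a difference and their p and calls are no support for one. A further intronic site of Mapt on the minus strand (position 104236629), without reads in aOPC and with 9 and 41 reads in aOL, missed the minimum and was chosen for its counts of 0. Its pooled level in aOL, 1.16 CPM, was 9.40 times the floor of 3 counts over both aOPC libraries, 0.124 CPM. That ratio allows for no error in aOL, and at a site chosen for its counts of 0 it is no support for a difference. An intronic site of Tubb3 on the plus strand (position 123414526 of chromosome 8) had 4.92 and 2.22 CPM in aOPC against 2.14 and 1.52 CPM in aOL (-1.01 ± 0.43, edgeR adjusted p = 0.435). The site of smallest p was a coding-exon site in Tubb4a (position 57081740 of chromosome 17), with 1.83 and 1.23 CPM in aOPC against 1.005 and 0.702 CPM in aOL, an intronic site in Tppp (position 74019582 of chromosome 13), with 0.562 and 0.876 against 0.377 and 0.554 CPM, and a promoter site in Stmn4 (position 66343844 of chromosome 14), with 2.11 and 1.46 against 0.628 and 1.22 CPM. These 3 sites were lower in aOL without overlap, as were 17.2% of all sites tested, and their edgeR adjusted p lay between 0.594 and 0.757. Sites chosen for their smallest p tend to separate the populations, so nothing is read from that separation. In Tubb2b and Tuba1a the best-read site also had the smallest p.

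At the best-read sites the populations overlapped in 6 members and not in Tppp, Tubb2b and Stmn1. Of all sites tested, 23.3% were higher and 17.2% lower in aOL without overlap. The Mapt site with the most reads, 86727 bases into the gene (position 104318117, plus strand), gave 91 and 201 reads in aOPC against 204 and 285 in aOL, or 12.8 and 11.7 CPM against 12.8 and 10.5 CPM. The best-read site of Map1b gave 27 and 147 reads against 150 and 232, or 3.80 and 8.59 CPM against 9.42 and 8.57 CPM, with aOPC replicate 2 low. The coding-exon site of Tubb4a gave 33 and 96 reads against 102 and 125, or 4.64 and 5.61 CPM against 6.41 and 4.62 CPM. In these 3 sites the populations overlapped, as they did in those of Tubb3, Stmn4 and Tuba1a. That of Tubb3 gave 4.08 and 4.85 CPM against 5.02 and 4.80 CPM, and that of Stmn4 gave 4.36 and 5.96 CPM against 5.84 and 6.13 CPM. The coding-exon site of Tuba1a gave 9 and 29 reads against 23 and 31, or 1.27 and 1.69 CPM against 1.44 and 1.15 CPM. The best-read site of Tppp gave 13 and 20 reads against 18 and 30, or 1.83 and 1.17 CPM against 1.13 and 1.11 CPM, lower in aOL by less than the aOPC libraries differed. That of Tubb2b (position 34129722 of chromosome 13), in its first kilobase, gave 10 and 9 reads against 7 and 10, or 1.41 and 0.526 CPM against 0.440 and 0.370 CPM, and was likewise lower (edgeR adjusted p = 0.620). That of Stmn1 (position 134468828 of chromosome 4) gave 3 and 2 reads against 8 and 12, or 0.422 and 0.117 CPM against 0.502 and 0.443 CPM, higher in aOL and too thinly read for the test.

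Reads were concentrated in few sites and often on one strand. The 5 best-read sites held 88.9% of the reads of Stmn4, 84.9% of those of Tuba1a and 74.9% of those of Tubb4a, and in Mapt and Map1b, with 134 and 120 sites, still 31.2% and 32.2%. These shares were much alike in the 4 libraries for Mapt, between 30.3% and 33.9%. At the best-read CpG of Mapt, the other strand had 1 and 0 reads in aOPC against 0 and 1 in aOL, beside 781 reads in all on the plus strand. In Map1b the other strand of the best-read CpG had 7 and 52 reads in aOPC against 25 and 49 in aOL, and in Tubb4a, Tubb3, Tppp and Stmn4 it was not listed at all. Since a read needs a second MspI cut at a suitable distance, a strand without reads is no measure of its 5hmC.

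**Figure D4:**
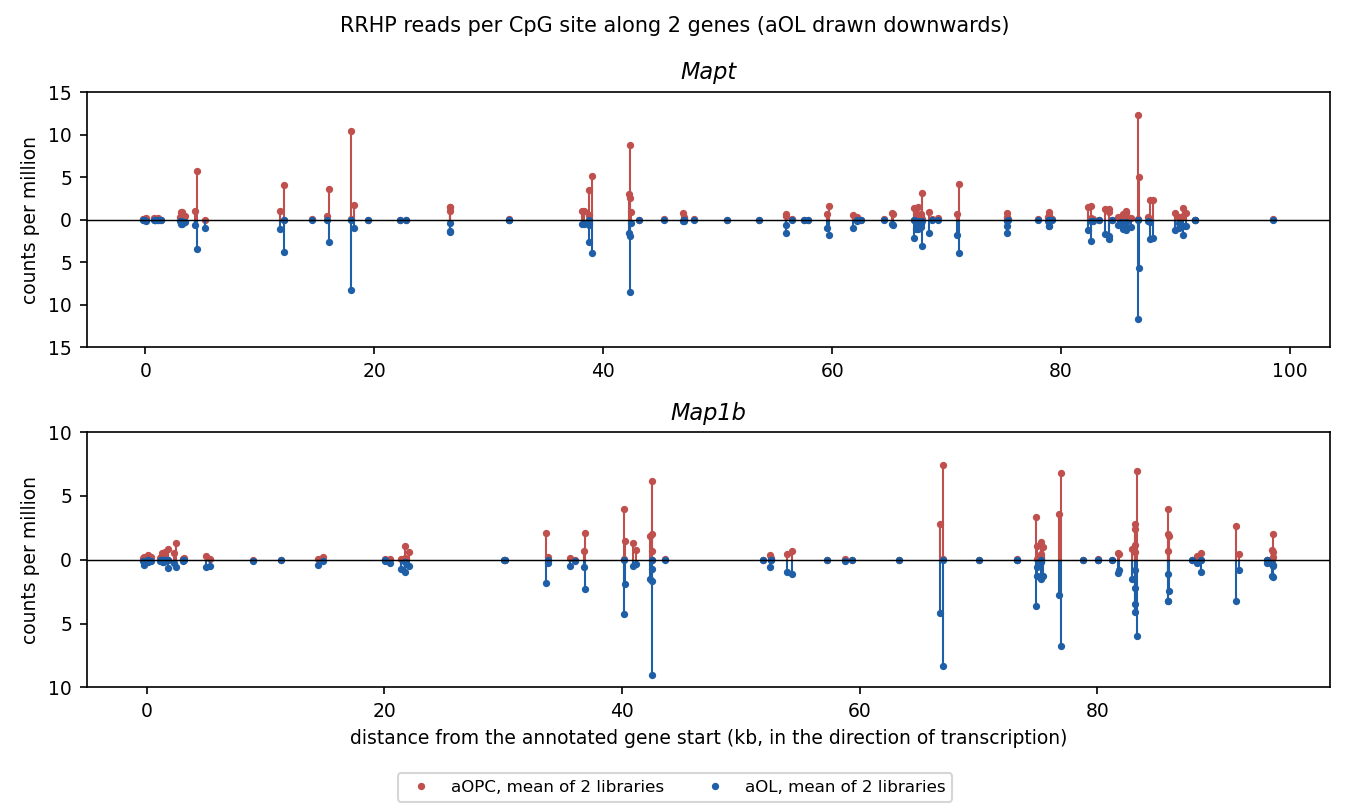
RRHP CPM at each listed CpG site of Mapt (top, 134 sites) and Map1b (bottom, 120 sites) against the distance from the annotated start of the gene in kilobases, with the mean of the 2 aOPC libraries drawn upwards in red and that of the 2 aOL libraries downwards in blue. The same sites stand out in both populations, and the sites around the start are close to 0.

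Sites near the start of a gene had fewer reads than sites farther in, in every library. The 25 sites before the start, in 8 of the genes, held 0.315 and 0.136 CPM per site in the aOPC libraries against 0.128 and 0.163 in the aOL libraries. The 47 sites in the first 500 bases after the start of the 9 genes held 0.281 and 0.0808 CPM per site in the aOPC libraries against 0.0828 and 0.112 in the aOL libraries. The 16 sites from 500 bases to under 1000 held 0.299 and 0.0949 in aOPC against 0.126 and 0.155 in aOL, and the 45 sites from 1000 bases to under 5000 held 0.968 and 0.592 against 0.536 and 0.559. The 240 sites at 5000 bases or more from the start, in 6 of the genes, held 0.910 and 1.07 CPM per site in aOPC against 1.11 and 1.01 in aOL. In aOPC replicate 2 the sites from 1000 to under 5000 bases were thus slightly above those at 5000 bases or more, unlike in the other libraries. The 82 sites in CpG islands held 0.139 CPM per site on average and the others 0.957, and only 1 island site had the reads needed for a test. Stmn1, with 15 of the island sites, held 0.0847 CPM per site in islands and 0.0814 outside, and Stmn4 had no island site. In every other member the island value was the lower. In the printed promoter of Tppp, 3 listed sites at 2 CCGG sequences had 4 and 4 reads in aOPC against 4 and 6 in aOL. In that of Map1b, 5 listed sites at 4 CCGG sequences had 7 and 7 reads against 14 and 27. These counts are too low for a test of single sites.

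RNA and gene-body 5hmC can be set side by side for each gene, as the same cells gave both. Tppp was higher in RNA (1.51) and lower in gene-body 5hmC (-0.68), and Tubb4a showed the same signs (0.33 and -0.31), without overlap in either measure. Tubb3 and Tuba1a were lower without overlap in both. Stmn1, lower in RNA (-0.89), had a gene-body difference of 0.36 ± 0.69 with overlapping populations. None of these differences passed its test, and a relation over 9 genes chosen by name was not tested.

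**Figure D5:**
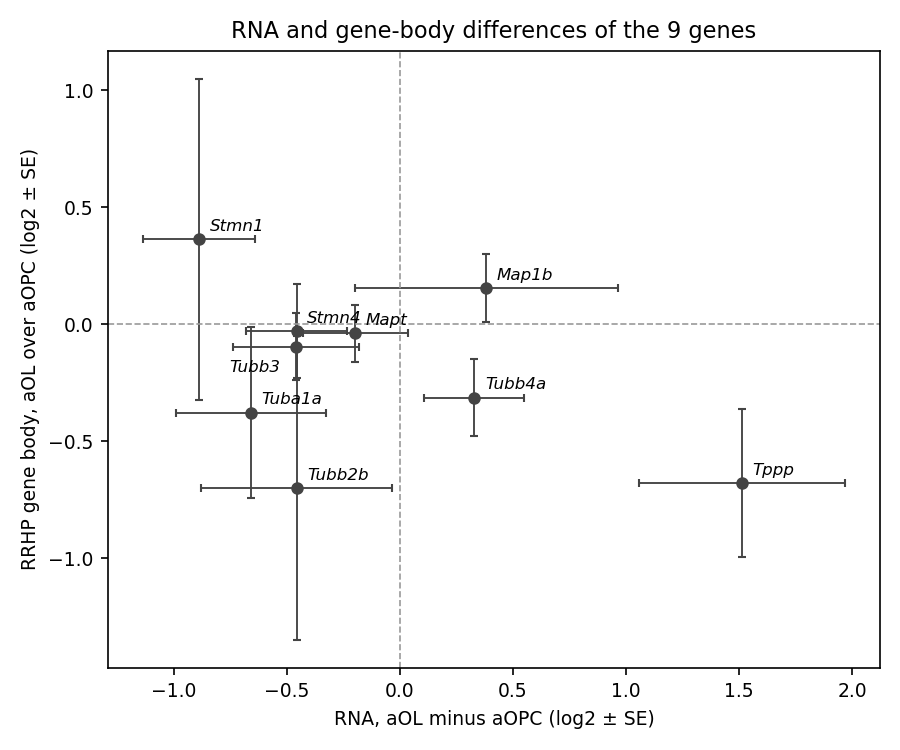
The difference in RNA (horizontal axis, log2) and the log2 fold change of gene-body RRHP counts (vertical axis) of the 9 genes, aOL against aOPC, with standard errors from limma and edgeR. Tppp stands alone at 1.51 and -0.68, and the wide vertical bars of Stmn1 and Tubb2b come with few reads.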

How the data were processed

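RNA and RRHP libraries of aOPC and aOL, 2 of each per population, were used. The deposited RNA values are log2 values per gene, which the authors derived from reads aligned with BWA to mm10; the methods name featureCounts and DESeq2, while the step that gives one value in all libraries at each of the 196 leading ranks is not given in the sources used here. The study's count test was therefore replaced by limma 3.58.1 on the deposited log2 values, for genes with a log2 of at least 5 in at least 2 libraries, called at p under 0.01 and adjusted p under 0.05. The deposited RRHP counts are reads per CpG and strand, which the authors aligned to mm10 and assigned to promoters, exons and introns. The promoter sites of these genes lay between -452 and 954 bases from the GENCODE vM21 start. Counts were summed per gene and region and tested with edgeR 4.0.16 (quasi-likelihood, TMM on library totals, filterByExpr), and single sites likewise where 2 or more libraries had 10 reads, called at adjusted p under 0.05. Each test was fitted and Benjamini-Hochberg adjusted over all genes, regions or sites. Standard errors of edgeR fold changes were taken from the fold change and the F statistic. DESeq2 1.42.0, other filters and scalings, the replicate number as a block and leaving out each library in turn were alternatives. Functions were tested on simulated data.

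The depth of the RNA libraries cannot be read from log2 values. The RRHP totals, 7113237 to 27057859, limit the single sites most, and a floor of 3 counts covers counting error only, since the reads carry no molecular identifiers. Gene positions are those of GENCODE vM21 on GRCm38, and sequences were read from that genome. The 9 genes and the wider list were chosen with earlier results of these data known. Text names all 9 members, the markers, in each role group the other tested gene with the largest RNA difference in each direction among those whose populations do not overlap, and for each member the site with the most reads and that with the smallest p. Genes or sites named because an alternative called them, and the relatives Stmn3, Tuba1b, Tuba1c and Tubb2a, were chosen after their values were seen. Samples of replicate 1 were not analysed here, and the driver of the aOL reporter is not reported here.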

Additional observations from a re-analysis of the deposited data

How the results depend on the processing

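With all libraries, no alternative called a member in RNA, gene bodies, promoters, exons or introns; single-library removals did. Leaving out each library in turn gave 0 to 3 members called in RNA and 0 to 33 of the wider list, 0 to 2 in gene bodies and 0 to 22 of the wider list, 0 to 1 in exons, 0 to 2 in introns and 0 to 1 single sites. Nearly all of these calls came without aOPC replicate 3 or 2, where the spread rests on the aOL pair. In the 93 gene bodies of the wider list, DESeq2 called 2, keeping every gene with 1 count called 1 and the replicate block 2. Over all gene bodies these fits called 201 of 18488, 204 of 19925 and 209 of 18488. Among single sites, a minimum of 5 reads called 1, the Mapt site at position 104236629 without reads in aOPC, where 15206 of 667177 sites were called. The replicate block called 1, the Map1b site with 0 and 1 reads in aOPC (edgeR adjusted p = 0.0240), where 13027 of 443062 were. Both sites reached the minimum through the aOL libraries alone, so these calls are no support for a difference. Same-numbered libraries come from different reporter lines, and their deviations correlated at -0.0736 in RNA and -0.0798 at RRHP sites, so the numbers were not taken to pair them.

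Signs turned when a library was left out for Map1b (-0.38 to 1.15) and Tubb2b (-1.002 to 0.0920) in RNA, for Map1b (-0.0042 to 0.35), Mapt (-0.0933 to 0.0203), Stmn1 (-0.33 to 1.27), Stmn4 (-0.0980 to 0.0733) and Tubb2b (-1.29 to 0.0206) in gene bodies, and for Tuba1a (-0.29 to 0.0503), Tubb2b (-0.0546 to 0.83), Tubb3 (-0.35 to 0.0059) and Tubb4a (-0.77 to 0.25) in promoters. With only sites of 3 reads in every library, Stmn4 gave 0.18 in gene bodies. Library totals without TMM turned the promoter values of Map1b (-0.0265), Stmn1 (-0.17) and Tubb2b (-0.34) and the calls over all promoters from 61 higher and 51 lower to 31 and 68. In exons, Stmn4 turned to 0.21 with only sites of 3 reads in every library, and in introns Map1b (-0.0651 to 0.24), Stmn1 (-0.40 to 1.26), Stmn4 (-0.0976 to 0.35) and Tuba1a (-0.99 to 0.30) turned when a library was left out. The cause was not tested. In RNA, gene bodies and promoters, the other 203 recomputed differences kept sign and side of the threshold, and 7, all from removals, kept the sign and passed it.

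Over all genes, 9 RNA calls became 0 without a filter, 36 with a log2 minimum of 8, 23 with a variance trend and 127 with the replicate block, and 157 gene-body calls became 10 with only sites of 3 reads in every library. The 10154 called sites became 490 with 10 reads in every library and 6590 with DESeq2.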
